A study of Mus musculus with 9 samples.

Results

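Receptor subunits for glutamate, GABA and glycine were followed through the brains of mice of 3 genotypes. The set held 52 of the 56748 genes in the count table: every protein-coding gene whose symbol names a subunit of an AMPA, kainate, NMDA or delta receptor, a metabotropic glutamate receptor, a GABA-A or GABA-B receptor, or a glycine receptor. The genes were chosen by symbol. Of the 52, 47 passed a filter on low counts (at least about 10 counts in 3 libraries) and were among the 17575 genes tested.

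RNA came from mice aged 7 months, from brain without the cerebellum, with 3 libraries per genotype, each titled as a separate mouse. The 5xFAD/Cd5l tg/wt mice carried the 5xFAD transgenes plus a transgene in the tg/wt state that drives mouse Cd5l from the promoter of human PDGF-B, which is active mainly in neurons. The 5xFAD mice carried mutant human transgenes, APP among them, under the neuronal Thy1 promoter. Wild-type mice carried neither. Strain and sex are not labelled. CD5L is a secreted scavenger-receptor protein of tissue macrophages. Cd5l had 2553, 2822 and 3551 counts in 5xFAD/Cd5l tg/wt libraries 1 to 3, 0 in each 5xFAD library, and 0, 1 and 0 in wild-type libraries, so the labels match the transgene.

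Fast excitation in the brain runs through glutamate-gated cation channels built from several subunits each. AMPA receptors carry most of the fast current, NMDA receptors add slow, calcium-permeable current, and metabotropic glutamate receptors act through G proteins. Fast inhibition runs through GABA-gated and glycine-gated chloride channels, GABA-A receptors mostly joining alpha and beta subunits with a gamma or delta subunit, while GABA-B receptors inhibit through G proteins. Subunit choice sets where a receptor sits and how it behaves, and several subunits mark particular regions: Gabra6, for example, is made by cerebellar granule cells, and Gabrq and Gabre by hypothalamic and brainstem neurons.

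The libraries held 14575416 to 17865150 counts, and 3 counts, the upper limit that a count of 0 allows, corresponded to 0.168 to 0.207 counts per 1000000 counts (CPM). That limit covers counting error only. In all, 3 libraries stood apart in cerebellar or hypothalamic markers, and later mentions of 3 libraries apart in regional markers mean these. Summed over 10 cerebellar markers, wild-type library 3 had 841 CPM, against 46.4 to 128 CPM in the other 8 libraries. Summed over 6 hypothalamic markers, 5xFAD/Cd5l tg/wt libraries 2 and 3 had 2.16 and 1.97 CPM, with Hcrt and Oxt at 0 in both, against 42.3 to 75.8 CPM in the other 7. Summed over 7 hindbrain and spinal cord markers the same 2 libraries had 1.28 and 3.33 CPM, against 14.5 to 88.6 CPM elsewhere. That split rests largely on Tph2, which gave 13.2 of the 15.8 CPM of 5xFAD/Cd5l tg/wt library 1. Of the 7 markers, 5, 5 and 4 were at 0 in 5xFAD/Cd5l tg/wt libraries 1 to 3. Over 6 striatal markers, 5xFAD/Cd5l tg/wt library 1 was lowest (370 CPM) and library 2 highest (844 CPM), with the others at 474 to 800 CPM. Over 5 thalamic markers, 5xFAD/Cd5l tg/wt library 2 was lowest (100 CPM) and wild-type library 3 highest (272 CPM), with the others at 154 to 197 CPM. Fits that kept only library 1 of 5xFAD/Cd5l tg/wt thus rest on a library itself at an extreme for striatal markers. The 6 neuronal markers summed to 6300 to 6987 CPM in 5xFAD/Cd5l tg/wt libraries, 6356 to 6581 CPM in 5xFAD and 6451 to 6680 CPM in wild-type libraries. In the same order, 5 microglial markers summed to 567 to 620, 462 to 599 and 276 to 305 CPM. Likewise, 5 astrocyte markers summed to 1656 to 2069, 1628 to 1759 and 1062 to 1245 CPM. In 5xFAD against wild-type, all 5 microglial markers and 1 astrocyte marker rose, and 2 of 4 endothelial markers fell (edgeR adjusted p under 0.05). The part of these differences in the receptor values was not tested. In tissue RNA, fewer cells of a type and less RNA per cell cannot be told apart.

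Promoter windows were read for the genes on which the results turn: 2 with a wide spread between libraries (Gabra6 and Gabrq), the single gene called between genotypes (Grin3b), and the AMPA subunit gene nearest to a call in 5xFAD/Cd5l tg/wt brain (Gria2). The sequences are from RefSeq (GRCm38.p6). Each runs 5′ to 3′ on the gene's strand over the 250 bases before the annotated start, with CG dinucleotides in capitals, and they show a CG-poor pair and a CG-rich pair. The windows are chr11:42321073-42321322 on the minus strand for Gabra6, chr10:79970474-79970723 on the plus strand for Grin3b, chrX:72824928-72825177 on the plus strand for Gabrq, and chr3:80802836-80803085 on the minus strand for Gria2.
Gabra6: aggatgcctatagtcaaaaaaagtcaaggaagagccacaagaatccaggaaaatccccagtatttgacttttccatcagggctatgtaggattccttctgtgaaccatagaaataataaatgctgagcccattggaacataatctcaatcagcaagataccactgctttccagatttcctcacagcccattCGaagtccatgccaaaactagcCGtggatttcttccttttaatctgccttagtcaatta
Grin3b: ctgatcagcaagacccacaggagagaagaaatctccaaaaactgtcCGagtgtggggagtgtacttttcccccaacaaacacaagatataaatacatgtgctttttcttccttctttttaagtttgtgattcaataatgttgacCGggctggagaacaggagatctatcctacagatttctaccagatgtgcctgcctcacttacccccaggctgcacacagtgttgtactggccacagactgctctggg
Gabrq: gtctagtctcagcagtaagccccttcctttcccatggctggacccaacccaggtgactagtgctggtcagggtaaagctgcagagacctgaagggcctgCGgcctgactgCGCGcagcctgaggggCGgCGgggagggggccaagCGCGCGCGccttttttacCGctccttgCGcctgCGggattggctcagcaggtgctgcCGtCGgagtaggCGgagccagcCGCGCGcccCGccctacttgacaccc
Gria2: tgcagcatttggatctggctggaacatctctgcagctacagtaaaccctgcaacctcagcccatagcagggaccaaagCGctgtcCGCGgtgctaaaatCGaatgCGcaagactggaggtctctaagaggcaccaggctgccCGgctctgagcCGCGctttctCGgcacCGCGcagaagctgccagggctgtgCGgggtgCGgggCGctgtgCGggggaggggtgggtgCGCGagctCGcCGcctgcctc

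The Gabra6 and Grin3b windows held 2 CG dinucleotides each, and the Gabrq and Gria2 windows 19 each. Windows were found for 36 of the 52 genes, 43 windows in all. Their median was 8 CG dinucleotides, against 6 over the 32851 windows of the table, and their median GC content was 58.8%, against 52.4%. Fewer than 5 CG dinucleotides occurred in 13 of the 43 windows (30.2%), against 44.4% of all windows. In all, 10 genes had fewer than 5 CG dinucleotides in every window: Gabra3, Gabra6, Gabrg1, Gabrp, Gabrr2, Gabrr3, Glra3, Glra4, Grin3b and Grm6. They included 4 of the 5 members that failed the count filter (Gabrp, Gabrr3, Glra4 and Grm6), but also Gabra3, one of the more abundant subunits at 37.5 RPKM. Searched on both strands, the GC box GGGCGG occurred in 21 of 43 windows (48.8%), against 32.7% of all windows. The TATA box TATAAA occurred in 5 (11.6%), against 12.4% of all windows, and Grin3b was among those 5. These matches describe the letters of the windows only.

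Per length, subunits of GABA-B, AMPA, glycine and NMDA receptors all stood among the 6 most abundant members, and tested members ran from 95.2 down to 0.36 RPKM. Levels between genes are given as CPM per 1000 bases of gene length (RPKM), as mean ± SD over all 9 libraries (n = 9, all genotypes pooled). Gabbr1, the GABA-binding subunit of the GABA-B receptor (chromosome 17, 37356858 to 37385959, GRCm39), was highest at 95.2 ± 2.79 RPKM, and its lowest library (89.8 RPKM) lay above the highest library of any other member. The AMPA subunit gene Gria1 followed at 74.3 ± 6.38 RPKM. Glrb, the beta subunit that anchors glycine receptors at synapses, stood at 61.3 ± 3.28 RPKM. The libraries of Gria1 and Glrb overlapped, so the order of these genes is not resolved.

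Gabbr2 (49.2 ± 3.32 RPKM) and Grin1 (48.5 ± 3.92 RPKM) overlapped each other and lay below every library of Glrb. GABBR2 is the G-protein-coupling partner of GABBR1, and GRIN1 is the subunit that every NMDA receptor contains. Gabra3, an alpha subunit of GABA-A receptors, stood at 37.5 ± 2.32 RPKM, below every library of both. At the lower end, Gabre averaged 0.58 RPKM, Gabrr2 0.48 RPKM and Grin3b 0.36 RPKM. The 5 genes below the filter were Glra4 (49 counts over 9 libraries), Gabrr1 (21), Gabrr3 (11), Grm6 (2) and Gabrp (1). Grm6 and the rho subunit genes Gabrr1 and Gabrr3 are known from retina.

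**Figure D1:**
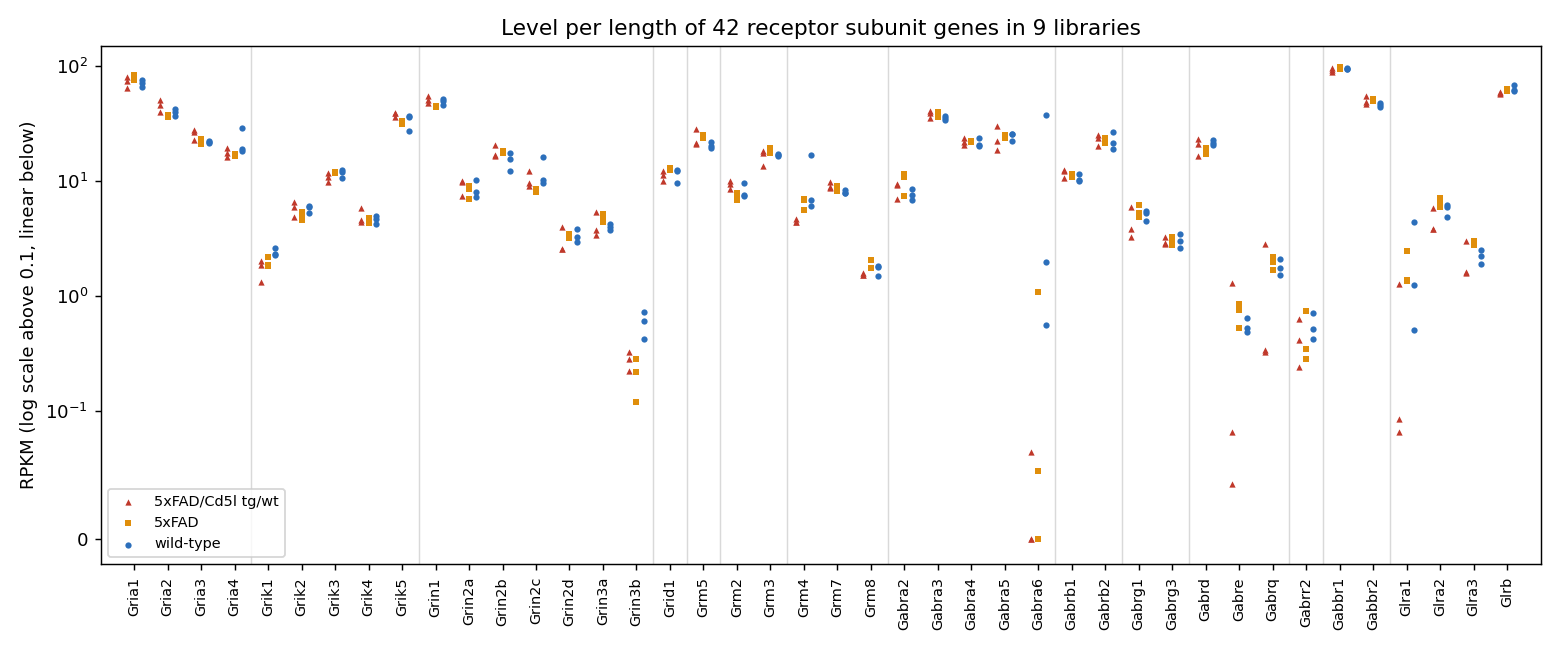
Level per length (RPKM, logarithmic above 0.1 and linear below) of 42 tested receptor subunit genes, each point a library and each colour a genotype. Gabbr1 is highest at 95.2 RPKM on average, and the genes with widely scattered points, such as Gabra6, Glra1, Gabre and Gabrq, lie at the low end.

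Within the AMPA, kainate, GluN2 and metabotropic families the subunit with the largest mean share of RPKM was the same in all 3 genotypes. Shares are of the summed RPKM of a family, as mean ± SD over 3 libraries, and carry no test. They depend on the file's gene lengths. Not divided by length, Gria2 (634 CPM, 15548 bases) lay above Gria1 (449 CPM, 6043 bases) on average over the 9 libraries. Gria1 held 45.1 ± 3.68% of AMPA subunit RNA in 5xFAD/Cd5l tg/wt, 50.8 ± 1.76% in 5xFAD and 45.9 ± 1.98% in wild-type brain. Gria2, which makes AMPA receptors nearly impermeable to calcium, held 27.9 ± 1.72%, 24.0 ± 0.49% and 25.7 ± 1.00% in 5xFAD/Cd5l tg/wt, 5xFAD and wild-type brain. Every 5xFAD/Cd5l tg/wt library (26.0, 28.6 and 29.2%) lay above every 5xFAD library (24.5, 23.9 and 23.5%), while the wild-type libraries (25.9, 26.6 and 24.7%) overlapped those of 5xFAD/Cd5l tg/wt at their low end.

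Grik5, a high-affinity subunit that forms channels only with other kainate subunits, was the main kainate subunit gene, with 62.2 ± 1.80% in 5xFAD/Cd5l tg/wt, 57.8 ± 0.63% in 5xFAD and 57.4 ± 4.47% in wild-type brain. Grin2b, the GluN2 subunit of the forebrain, held 44.5 ± 3.92%, 47.6 ± 2.08% and 38.7 ± 6.23% of GluN2 RNA in those genotypes in that order. Among metabotropic glutamate receptors Grm5, a group I receptor that raises intracellular calcium, held 32.1 ± 2.67% in 5xFAD/Cd5l tg/wt, 31.5 ± 0.44% in 5xFAD and 27.1 ± 4.07% in wild-type brain. The wild-type values for both genes carry the largest SD, and wild-type library 3 had the lowest CPM of all 9 libraries for both. In that library Grin2c exceeded Grin2b per length (16.1 against 12.3 RPKM), though not in CPM (81.3 against 305 CPM). The Grin2c share averaged 30.8 ± 9.14% in wild-type brain.

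Shares of GABA-A subunits were also close. Gabra3 held 24.8 ± 1.72% of alpha subunit RNA in 5xFAD/Cd5l tg/wt, 24.0 ± 1.30% in 5xFAD and 21.6 ± 3.57% in wild-type brain. Gabrb2, a beta subunit, held 27.8 ± 1.98%, 28.0 ± 1.26% and 29.0 ± 4.74% of beta subunit RNA in the same order of genotypes. For both genes the genotype means differed by less than the SD within wild-type brain. An exception within the alpha family was Gabra6, whose share reached 18.8% in wild-type library 3 and was at most 0.68% in any 5xFAD/Cd5l tg/wt or 5xFAD library.

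The spread of receptor subunit RNA between libraries was near that of all tested genes. The median coefficient of variation over the 9 libraries was 11.9% for the 47 tested members and 13.9% over all tested genes. Of the 47 members, 16 varied by less than 10%, led by Gabbr1, against 33.4% of all tested genes. Those that varied by more than 30% numbered 8, against 20.4% of all tested genes, among them Gabra6, Glra1, Gabre, Grm4, Grin3b, Gabrq and Gabrr2. The extremes fell in few libraries. The highest of the 9 values lay in 5xFAD/Cd5l tg/wt library 2 for 14 of 47 members (29.8%, against 16.1% of all tested genes) and in wild-type library 3 for 12 (25.5%, against 16.4%). The lowest lay in 5xFAD/Cd5l tg/wt library 3 for 11 members (23.4%, against 11.4%) and in wild-type library 3 for 10 (21.3%, against 13.2%).

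**Figure D2:**
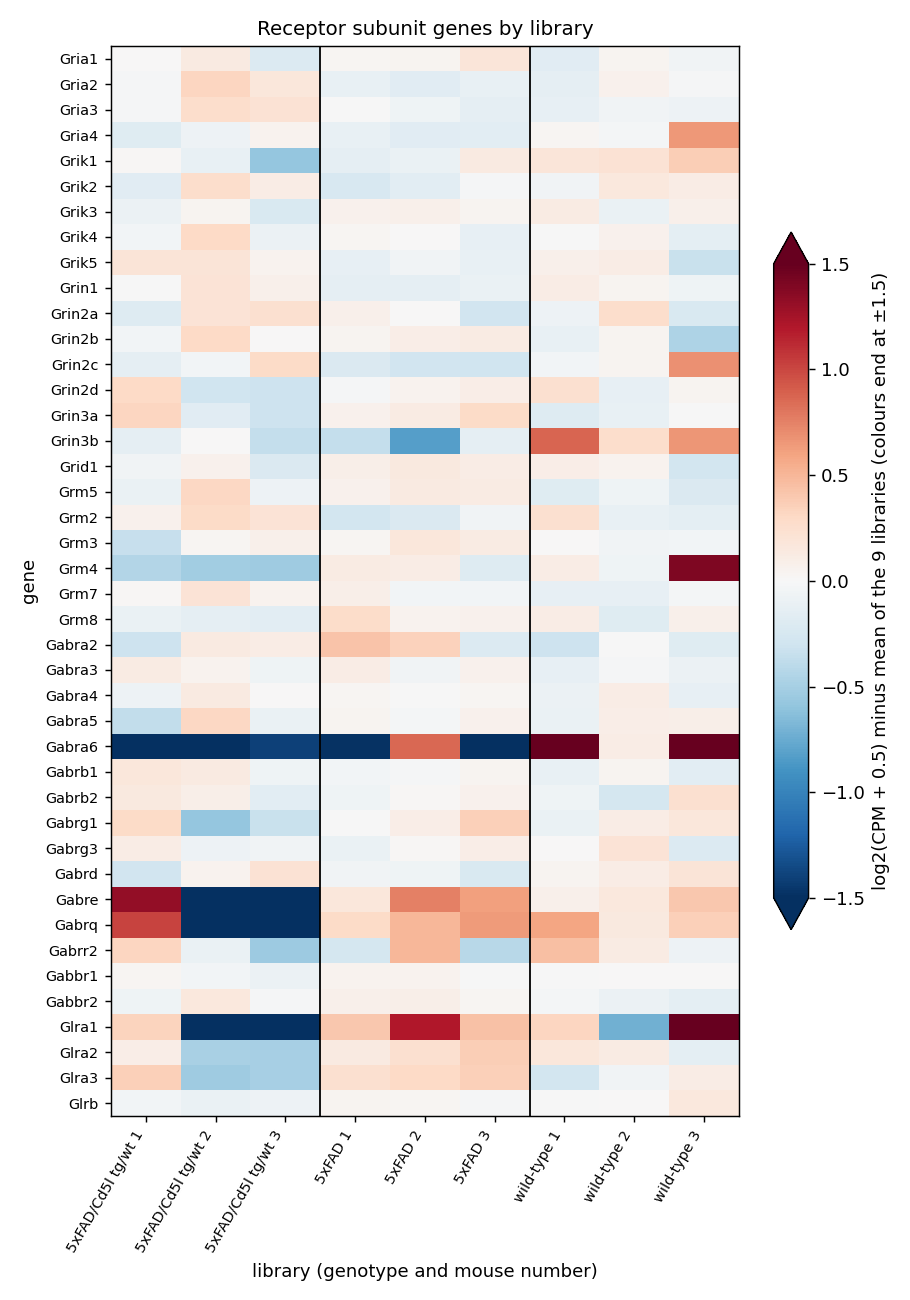
Heat map of 42 tested receptor subunit genes (rows) by library (columns), coloured by log2(CPM + 0.5) minus the mean of the 9 libraries, with colours ending at ±1.5. Wild-type library 3 is high for Gabra6, Grm4 and Glra1, and 5xFAD/Cd5l tg/wt libraries 2 and 3 are low for Gabrq, Gabre and Glra1.

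The comparison of 5xFAD with wild-type brain asked what the amyloid-producing transgenes changed. At an edgeR quasi-likelihood adjusted p under 0.05 over all 17575 genes, none of the 47 members rose and 1 fell (2.13%), against 1.06% of all genes that rose and 2.44% that fell (3.5% in either direction). The median log2 fold change was 0.01 over the members and -0.01 over all tested genes, with 25 members positive and 22 negative. The estimates were tight enough to bound most members: for 34 of 47 (72.3%) the 95% interval lay within 1.5-fold in either direction, against 58.9% of all tested genes. Counted without adjustment, 9 of 47 members had p under 0.05, against 16.3% of all genes. The libraries of 5xFAD and wild-type were fully separate for 11 members (23.4%), 5 higher and 6 lower, against 24.3% of all tested genes, with 10.4% higher and 13.9% lower, so the share was near the background.

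The gene that fell was Grin3b (chromosome 10, 79806549 to 79813024), which encodes GluN3B, a glycine-binding NMDA receptor subunit best known from motor neurons. It had 0.932, 1.08 and 0.734 CPM in the 5xFAD/Cd5l tg/wt libraries and 0.728, 0.393 and 0.937 CPM in the 5xFAD libraries, against 2.38, 1.40 and 2.01 CPM in the wild-type libraries. The raw counts behind these were 14, 16 and 13 in 5xFAD/Cd5l tg/wt, 11, 7 and 14 in 5xFAD, and 41, 23 and 29 in wild-type libraries. Every 5xFAD library lay below every wild-type library, and the 5xFAD/Cd5l tg/wt libraries lay with those of 5xFAD.

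The log2 fold change of Grin3b, 5xFAD over wild-type, was -1.5 ± 0.38 (95% interval -2.32 to -0.69; edgeR adjusted p = 0.0484; mean 0.686 ± 0.274 CPM in 5xFAD and 1.93 ± 0.497 CPM in wild-type, SD, n = 3 each). For 5xFAD/Cd5l tg/wt over wild-type it was -1.08 ± 0.36 (edgeR adjusted p = 0.221), lower in 3 of 3 libraries, and for 5xFAD/Cd5l tg/wt over 5xFAD 0.42 ± 0.41 (edgeR adjusted p = 0.572). The call is marginal: it was lost in 16 of 22 alternative settings and in 8 of the 9 fits that left out a library, all but the fit without 5xFAD/Cd5l tg/wt library 1, with adjusted p between 0.0466 and 0.225 over those 9. Grin3b is also among the least abundant members, and 2243 bases of it overlap Tmem259 on the opposite strand, which averaged 86.4 CPM and had a log2 fold change of 0.01 (edgeR adjusted p = 0.95). The strandedness of the counting is not given in the sources used here, so reads of the overlap cannot be told apart.

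**Figure D3:**
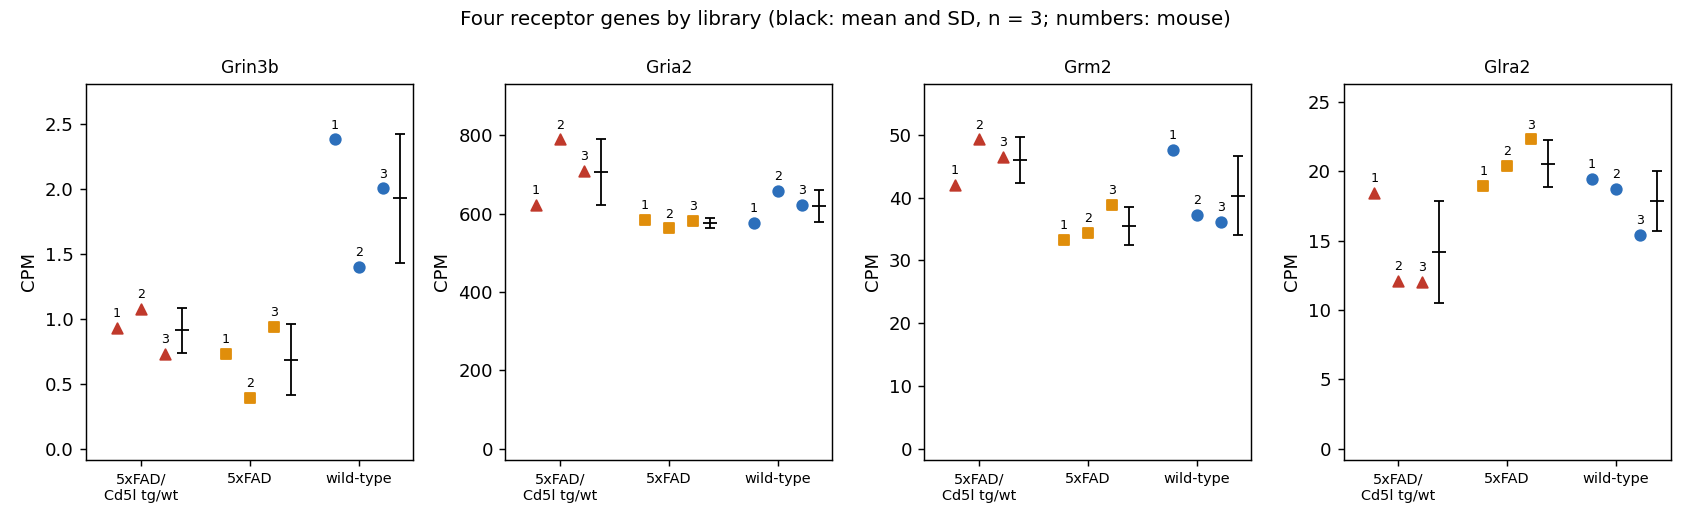
CPM of Grin3b, Gria2, Grm2 and Glra2 in each library, by genotype, with the mouse number beside each point and the mean and SD (n = 3) in black. Grin3b is at 0.393 to 1.08 CPM in all 6 libraries with 5xFAD transgenes and at 1.40 to 2.38 CPM in wild-type, while Gria2 and Grm2 are higher, and Glra2 lower, in 5xFAD/Cd5l tg/wt than in 5xFAD libraries, without passing the threshold.

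No other subunit passed in 5xFAD against wild-type, and 3 of the nearest ones were highest in the library that was high in cerebellar markers. Gabra6, the granule-cell alpha subunit (chromosome 11, 42197264 to 42211899), had 2, 48 and 0 counts in 5xFAD and 84, 23 and 1362 counts in wild-type libraries, or 0.132, 2.69 and 0 CPM in 5xFAD against 4.88, 1.40 and 94.2 CPM in wild-type libraries. The edgeR adjusted p was 0.0711, and no fold is given because 1 library carried nearly all of its counts. It passed without wild-type library 2 (adjusted p = 0.0259) but in no other fit that left out a library (0.0525 to 0.449, the highest without wild-type library 3), and DESeq2 and limma-voom gave adjusted p of 0.256 and 0.473. Grin2c, a GluN2 subunit of cerebellum and astrocytes, had 43.2, 41.0 and 40.6 CPM in 5xFAD against 48.8, 51.6 and 81.3 CPM in wild-type libraries, a log2 fold change of -0.54 ± 0.17 (edgeR adjusted p = 0.117). The libraries did not overlap, and wild-type library 3 was the highest. Grin2c passed with DESeq2 (adjusted p = 0.0370), and its lack of a call was unchanged in 20 of 22 alternative settings.

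Gria4 showed the same arrangement, with 108, 104 and 105 CPM in 5xFAD against 120, 115 and 183 CPM in wild-type libraries (log2 fold change -0.40 ± 0.15, edgeR adjusted p = 0.185). Among positive estimates, Grm5 had 242, 256 and 253 CPM in 5xFAD against 205, 222 and 200 CPM in wild-type libraries, a log2 fold change of 0.26 ± 0.10 (edgeR adjusted p = 0.208). Its 5xFAD libraries were close to each other and all above wild-type. Gabra2, an alpha subunit of limbic circuits, had 88.4, 83.6 and 57.0 CPM in 5xFAD against 52.8, 65.4 and 58.2 CPM in wild-type libraries, which overlap (log2 fold change 0.38 ± 0.16, edgeR adjusted p = 0.258).

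Abundant subunits were close between 5xFAD and wild-type brain. Gabbr1 had 763, 764 and 735 CPM in 5xFAD against 733, 741 and 744 CPM in wild-type libraries, a log2 fold change of 0.03 ± 0.06 with a 95% interval of -0.09 to 0.15. Glrb had 293, 290 and 283 CPM in 5xFAD against 284, 286 and 318 CPM in wild-type libraries (-0.04 ± 0.06, interval -0.17 to 0.10). Both intervals exclude a change of 1.5-fold. Gabbr2 had 346, 349 and 335 CPM in 5xFAD against 321, 308 and 297 CPM in wild-type libraries, without overlap (0.15 ± 0.07, edgeR adjusted p = 0.296).

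No member passed between 5xFAD/Cd5l tg/wt and 5xFAD brain, the comparison that asks what the Cd5l transgene added. Comparing 5xFAD/Cd5l tg/wt with 5xFAD, edgeR called 0 of 47 in either direction, against 5.34% of all tested genes that rose and 0.888% that fell (6.23% in either direction). Unadjusted p was under 0.05 for 9 of 47 members and 22.3% of all genes, DESeq2 called 2 members (Gria2 and Glra2), and limma-voom called 0, against 8.18% and 6.15% of all genes by those tools. The median log2 fold change was -0.05 over the members and 0.01 over all tested genes, with 19 members positive and 28 negative. For 33 of 47 members (70.2%) the 95% interval lay within 1.5-fold, against 56.1% of all tested genes. Libraries were fully separate for 11 members (23.4%), 5 higher and 6 lower, against 28.7% of all tested genes, with 16.6% higher and 12.1% lower.

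The 5 members with no overlap upward (10.6%, against 16.6% of all tested genes) were Gria2, Grin1, Grm2, Grik5 and Grin2c. Gria2 (chromosome 3, starting at 80588757) had 621, 789 and 710 CPM in 5xFAD/Cd5l tg/wt against 584, 562 and 582 CPM in 5xFAD libraries, with 576, 658 and 622 CPM in wild-type libraries. The 5xFAD/Cd5l tg/wt values were the more scattered, with library 1 only just above 5xFAD, and the wild-type values lay across both. The log2 fold change was 0.29 ± 0.08 (interval 0.11 to 0.48), or 1.23-fold, with an edgeR adjusted p of 0.0567. Adjusted p fell under 0.05 without library 1 of 5xFAD/Cd5l tg/wt (0.00507), with DESeq2 (0.0296) and with total-count scaling (0.0446). The fit that dropped the 3 libraries set apart by region kept only library 1 of 5xFAD/Cd5l tg/wt. Its estimate was 0.09.

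Grin1 had 468, 538 and 493 CPM in 5xFAD/Cd5l tg/wt against 428, 428 and 439 CPM in 5xFAD libraries, with 505, 484 and 450 CPM in wild-type libraries. Its log2 fold change was 0.21 ± 0.07 (edgeR adjusted p = 0.0886), and wild-type libraries overlapped those of 5xFAD/Cd5l tg/wt. Grm2, a presynaptic group II receptor that restrains glutamate release, had 42.0, 49.3 and 46.5 CPM in 5xFAD/Cd5l tg/wt against 33.2, 34.4 and 38.9 CPM in 5xFAD libraries, and 47.6, 37.3 and 36.2 CPM in wild-type libraries. Its log2 fold change was 0.37 ± 0.11 (edgeR adjusted p = 0.0741), and wild-type libraries lay across both.

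Grik5 had 203, 204 and 185 CPM in 5xFAD/Cd5l tg/wt against 164, 172 and 165 CPM in 5xFAD libraries (log2 fold change 0.24 ± 0.10, edgeR adjusted p = 0.18). Wild-type libraries, at 187, 192 and 141 CPM, again spread over both. Grin2c had 45.7, 48.8 and 61.2 CPM in 5xFAD/Cd5l tg/wt libraries, above the 5xFAD values given with the first comparison (log2 fold change 0.32 ± 0.17, edgeR adjusted p = 0.288). The AMPA subunit gene Gria3 had 226, 275 and 266 CPM in 5xFAD/Cd5l tg/wt against 229, 220 and 209 CPM in 5xFAD libraries, where library 1 overlapped (log2 fold change 0.22 ± 0.08, edgeR adjusted p = 0.112). With library 1 of 5xFAD/Cd5l tg/wt left out, adjusted p was 0.0335 for Grin1, 0.0373 for Grm2 and 0.0123 for Gria3, and without wild-type library 1 it was 0.0409 for Grm2. The fit that dropped the 3 libraries set apart by region kept only library 1 of 5xFAD/Cd5l tg/wt. Its estimates were 0.10 for Grin1, 0.23 for Grm2 and 0.03 for Gria3.

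Markers of cell types and regions moved with the same comparison. Summed over 6 cortical markers, 5xFAD/Cd5l tg/wt libraries had 414, 484 and 506 CPM against 409, 413 and 375 CPM in 5xFAD libraries, and 1 of the 6 rose. Summed over 6 markers of inhibitory neurons, they had 1099.7, 891 and 874 CPM against 1193, 1194 and 1206 CPM in 5xFAD libraries, and none of the 6 passed. Summed over 4 endothelial markers, they had 154, 179.5 and 189 CPM against 86.6, 95.7 and 114 CPM in 5xFAD libraries, and all 4 rose (edgeR). No marker of these lists was at 0 in any library, and the part of these differences in the receptor values was not tested.

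Downward, the 6 members with no overlap (12.8%, against 12.1% of all tested genes) were Glra1, Glra2, Glrb, Grid1, Grm4 and Grm8. They belong to both glycine and glutamate receptor families. Glra2, an alpha subunit of developing and forebrain glycine receptors, had 18.4, 12.1 and 12 CPM in 5xFAD/Cd5l tg/wt against 18.9, 20.4 and 22.3 CPM in 5xFAD libraries, and 19.4, 18.7 and 15.4 CPM in wild-type libraries. The log2 fold change was -0.54 ± 0.16 (edgeR adjusted p = 0.0753), and library 1 of 5xFAD/Cd5l tg/wt stood close to 5xFAD while libraries 2 and 3 were lower. Without library 1 the estimate was -0.77 (edgeR adjusted p = 0.00304). Without libraries 2 and 3 and wild-type library 3, which left library 1 alone in its genotype, the estimate was -0.17. Glrb had 278, 266 and 270 CPM in 5xFAD/Cd5l tg/wt against the 283 to 293 CPM of 5xFAD libraries, a log2 fold change of -0.09 ± 0.06 (edgeR adjusted p = 0.43). Grm4, a group III receptor of parallel fibre terminals, had a log2 fold change of -0.53 ± 0.30 (edgeR adjusted p = 0.321). It passed when the 6 libraries compared were fitted alone (adjusted p = 0.0139) and without wild-type library 3 (0.00838), with estimates of -0.54 and -0.53. Grm8, a presynaptic group III receptor, had 15.6, 15.2 and 15 CPM in 5xFAD/Cd5l tg/wt against 20.3, 17.4 and 17.5 CPM in 5xFAD libraries (-0.27 ± 0.11, edgeR adjusted p = 0.19).

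**Figure D4:**
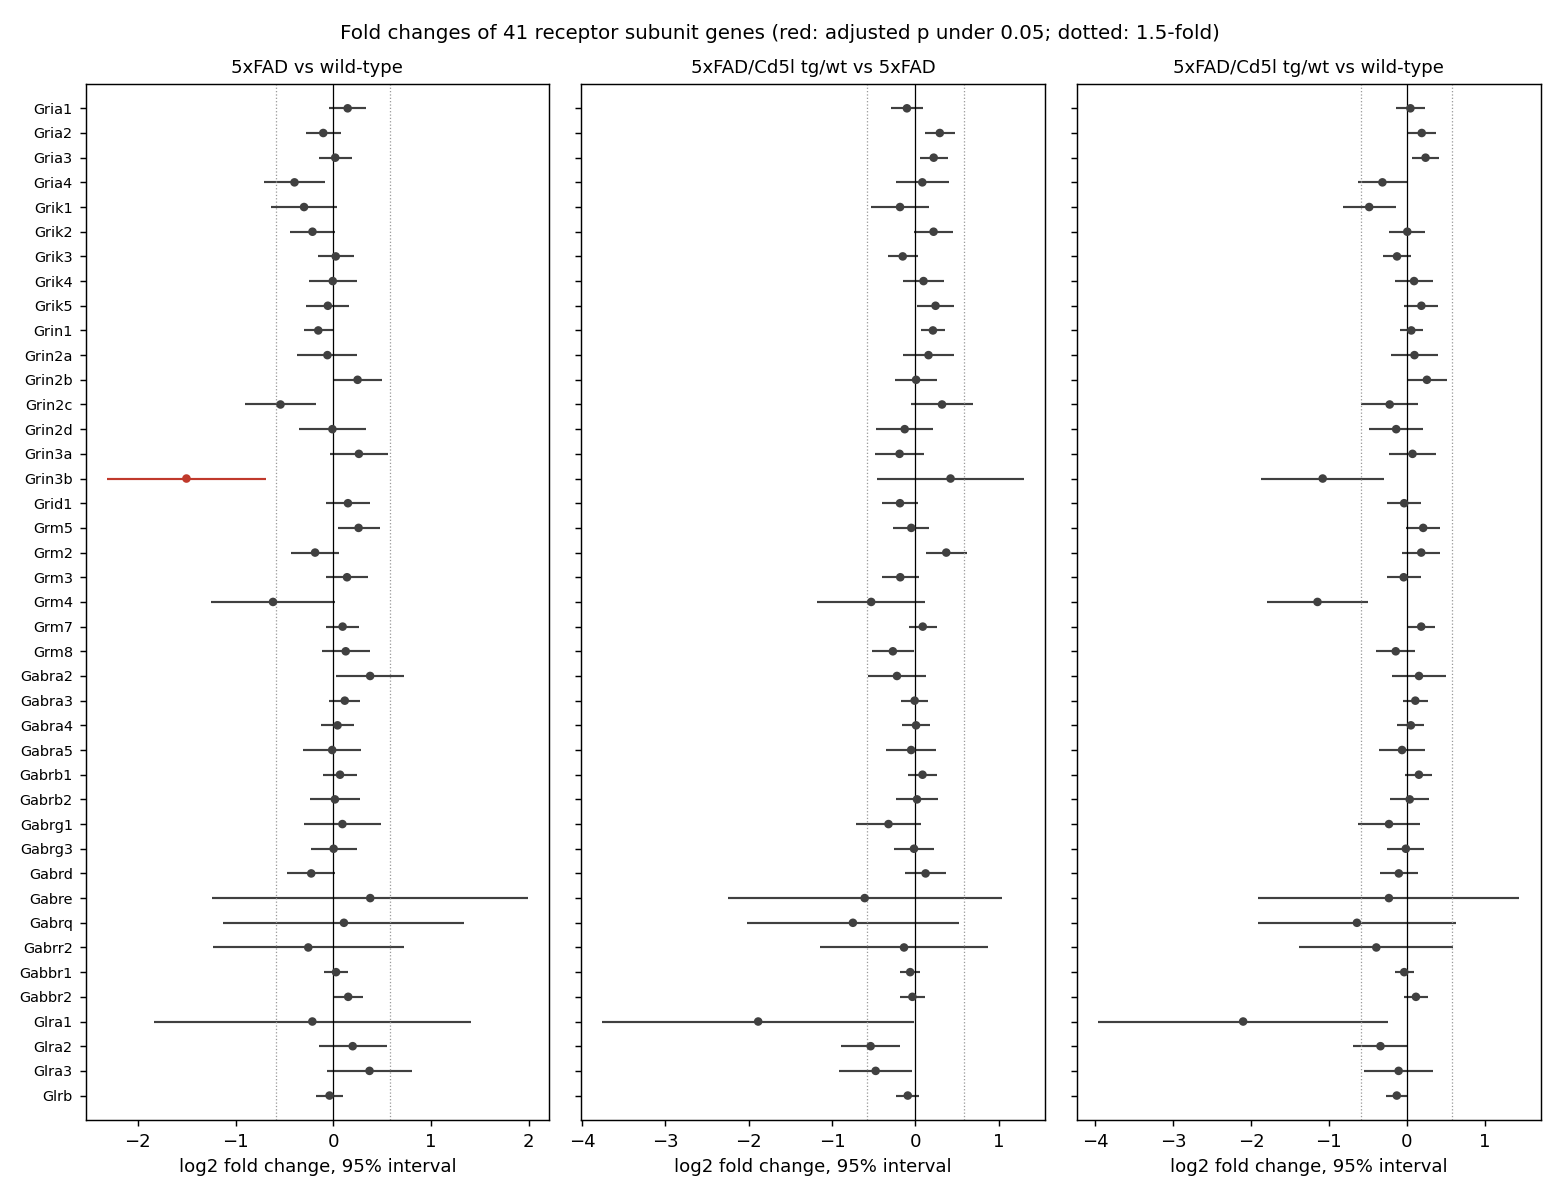
Log2 fold changes with 95% intervals of 41 tested receptor subunit genes in the 3 comparisons, with dotted lines at 1.5-fold and Grin3b in red in the comparison where it passed; Gabra6 is off the scale and the panels differ in range. Most intervals lie inside the dotted lines, 30, 30 and 31 of the 41 genes plotted in the comparisons of 5xFAD with wild-type, 5xFAD/Cd5l tg/wt with 5xFAD, and 5xFAD/Cd5l tg/wt with wild-type.

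Several low-abundance subunits separated 5xFAD/Cd5l tg/wt libraries 2 and 3 from library 1 and from the other genotypes. Gabrq, the theta subunit of GABA-A receptors (X chromosome, 71868784 to 71886208), had 15.2, 1.82 and 1.75 CPM in 5xFAD/Cd5l tg/wt libraries 1 to 3, against 9, 10.6 and 11.6 CPM in 5xFAD and 11.3, 8.15 and 9.47 CPM in wild-type libraries. Gabre, the epsilon subunit (X chromosome, 71299605 to 71318409), had 6.19, 0.202 and 0.395 CPM in 5xFAD/Cd5l tg/wt against 2.51, 4.04 and 3.61 CPM in 5xFAD and 2.33, 2.49 and 3.04 CPM in wild-type libraries. For both genes library 1 was the highest of all 9 and libraries 2 and 3 the lowest, and the genotype as a whole gave no call (edgeR adjusted p = 0.483 for Gabrq and 0.675 for Gabre against 5xFAD).

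Glra1, the alpha subunit of adult brainstem and spinal glycine receptors (chromosome 11, 55405064 to 55499024), had 3.06, 0.202 and 0.226 CPM in 5xFAD/Cd5l tg/wt against 3.24, 6 and 3.35 CPM in 5xFAD and 3.02, 1.22 and 10.6 CPM in wild-type libraries. Glra3 had 27.6, 14.7 and 15 CPM in 5xFAD/Cd5l tg/wt against 25.4, 26.5 and 27.6 CPM in 5xFAD and 17.6, 20.7 and 23.2 CPM in wild-type libraries. Gabrg1 had 47.1, 25.5 and 30.4 CPM in 5xFAD/Cd5l tg/wt against 38.2, 41.2 and 49.3 CPM in 5xFAD and 35.8, 41.5 and 43.3 CPM in wild-type libraries. In each case libraries 2 and 3 of 5xFAD/Cd5l tg/wt were the lowest of the 9, and library 1 was not. Against 5xFAD the edgeR adjusted p was 0.221 for Glra1, 0.188 for Glra3 and 0.324 for Gabrg1. Against wild-type Glra1 had a log2 fold change of -2.10 (adjusted p = 0.337). Leaving out library 1 of 5xFAD/Cd5l tg/wt gave -4.46 (edgeR adjusted p = 0.0257). Leaving out the 3 libraries apart in regional markers kept only library 1 of 5xFAD/Cd5l tg/wt and turned the sign, to 0.52.

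The same 2 libraries were those low in hypothalamic markers and in the hindbrain sum. The hypothalamic sum was 75.8, 2.16 and 1.97 CPM in 5xFAD/Cd5l tg/wt libraries, against 53.7, 69.1 and 66.9 CPM in 5xFAD and 73.8, 42.3 and 43.9 CPM in wild-type libraries. The olfactory bulb sum over 5 markers was also low in them, at 68.0, 14.8 and 12.2 CPM in 5xFAD/Cd5l tg/wt against 38.3 to 56.9 CPM in 5xFAD and 30.3 to 92.1 CPM in wild-type libraries. The part of regional content in these subunit values was not tested. Leaving out library 1 of 5xFAD/Cd5l tg/wt, edgeR called 12 of 47 members against 5xFAD, 5 higher and 7 lower (25.5%, against 11.5% of all genes in that fit), where the full set gave 0.

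**Figure D5:**
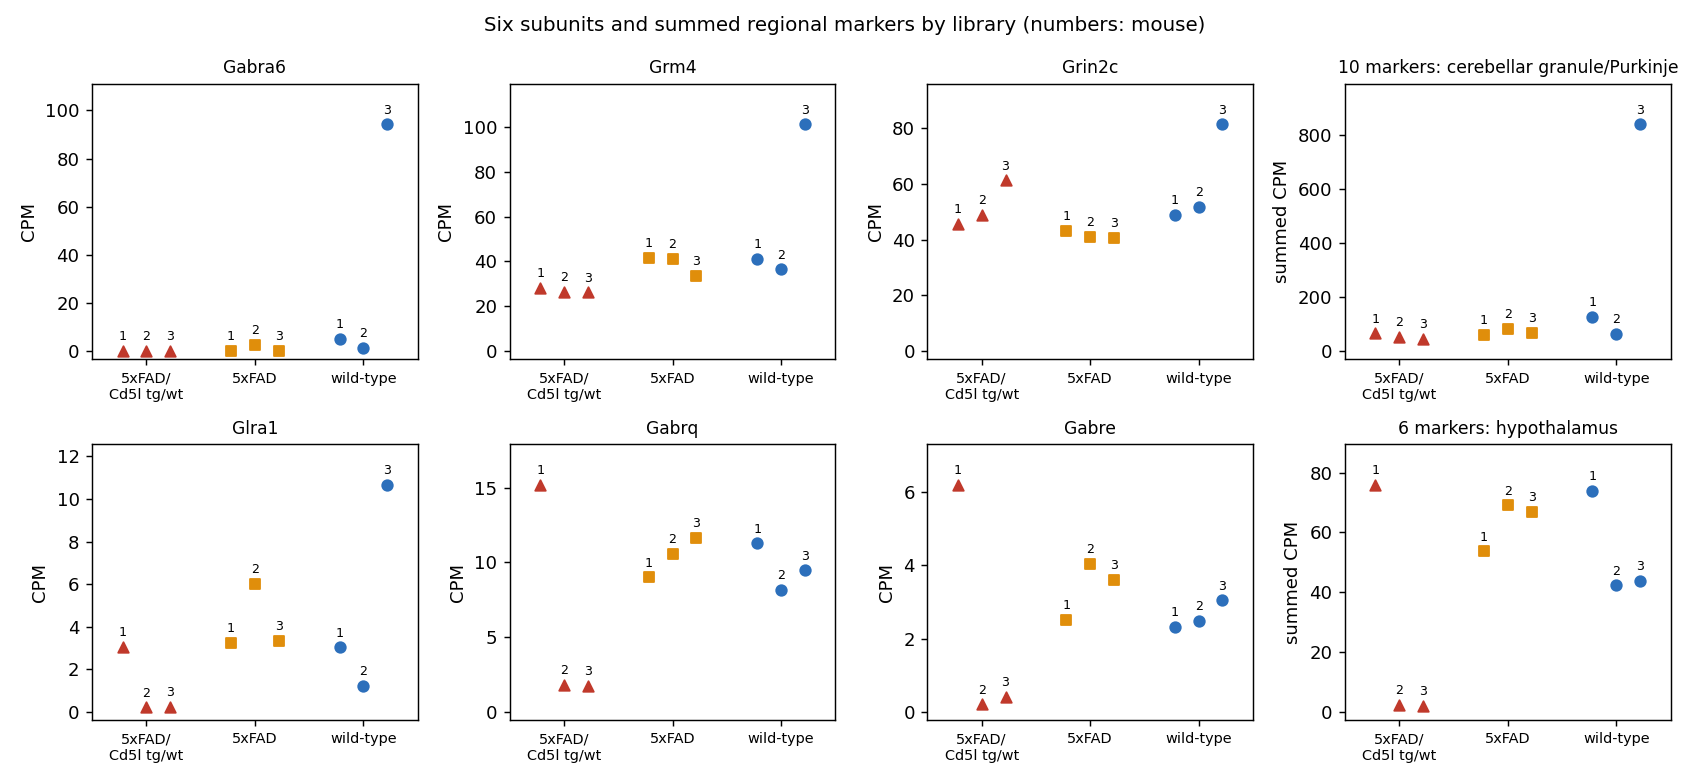
CPM by library of 6 subunit genes (Gabra6, Grm4, Grin2c, Glra1, Gabrq and Gabre) beside the summed CPM of 10 cerebellar and 6 hypothalamic markers, with mouse numbers at the points. Wild-type library 3 is the highest point for Gabra6 (94.2 CPM), Grm4 (101 CPM), Grin2c (81.3 CPM) and the cerebellar sum (841 CPM), and 5xFAD/Cd5l tg/wt libraries 2 and 3 are the lowest points for Gabrq, Gabre, Glra1 and the hypothalamic sum.

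Between 5xFAD/Cd5l tg/wt and wild-type brain, edgeR again called 0 of 47 members, against 1.38% of all tested genes that rose and 0.199% that fell (1.58% in either direction). Unadjusted p was under 0.05 for 10 of 47 members and 12.4% of all genes, DESeq2 called 1 member (Gabra6), and limma-voom called 0, against 2.66% and 1.52% of all genes by those tools. The median log2 fold change was -0.04 over the members and 0.00 over all tested genes, and the interval lay within 1.5-fold for 34 of 47 members (72.3%), against 60.8% of all genes. Libraries were fully separate for 7 members (14.9%), 2 higher and 5 lower, against 14.5% of all tested genes, with 7.93% higher and 6.53% lower. This comparison shares its libraries with the other 2, so its values are not independent of theirs.

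The smallest p belonged to Gabra6, with 0, 0 and 3 counts in 5xFAD/Cd5l tg/wt against the 84, 23 and 1362 counts of wild-type libraries (edgeR adjusted p = 0.0528). The libraries did not overlap, but the wild-type libraries themselves spanned 1.40 to 94.2 CPM. It passed without wild-type library 1 (adjusted p = 0.0358) or 2 (0.0111) and in no other fit that left out a library (0.0593 to 0.235). Grm4 (chromosome 17, 27641361 to 27740377) had 28.0, 26.4 and 26.1 CPM in 5xFAD/Cd5l tg/wt libraries and 41.4, 41.2 and 33.3 CPM in 5xFAD libraries, against 41.1, 36.4 and 101 CPM in wild-type libraries. Its log2 fold change was -1.15 ± 0.30 (edgeR adjusted p = 0.0948). Without wild-type library 3 the estimate was -0.53 with an adjusted p of 0.0385, and without wild-type library 2 it was -1.41 with an adjusted p of 0.0222, so both passed and differed in size.

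In wild-type library 3 the cerebellar marker Cbln3 had 192 CPM, against 0.395 to 18.5 CPM in the other 8 libraries. The label says that the cerebellum was removed, and the part of such RNA in the values of Gabra6, Grm4 and Grin2c was not tested.

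Of the 2 members higher in every 5xFAD/Cd5l tg/wt than in every wild-type library, Gria3 had a log2 fold change of 0.24 ± 0.08 (edgeR adjusted p = 0.194), from the 226 to 275 CPM given above against 211, 221 and 218 CPM in wild-type libraries. The other was Grm7, a group III receptor with low glutamate affinity, with 51.1, 58.1 and 52.1 CPM in 5xFAD/Cd5l tg/wt against 46.2, 46.4 and 49.2 CPM in wild-type libraries (0.19 ± 0.08, edgeR adjusted p = 0.361). The lower members without overlap were Gabra6, Grm4, Grin3b, Grik1 and Glrb. Grik1, a kainate subunit of interneurons, had 13.6, 12.5 and 8.86 CPM in 5xFAD/Cd5l tg/wt against 15.3, 15.7 and 17.6 CPM in wild-type libraries (-0.48 ± 0.16, edgeR adjusted p = 0.2).

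Abundant subunits of other families were also close between genotypes. Gria1 had 450, 489 and 389 CPM in 5xFAD/Cd5l tg/wt libraries, 456, 462 and 506 CPM in 5xFAD, and 397, 458 and 430 CPM in wild-type libraries. Gabra3 had 159, 152 and 140.1 CPM in 5xFAD/Cd5l tg/wt libraries, 158, 142 and 154 CPM in 5xFAD, and 135, 146 and 138 CPM in wild-type libraries. Gabrb2 had 159, 152 and 128 CPM in 5xFAD/Cd5l tg/wt libraries, 137, 145 and 151 CPM in 5xFAD, and 138, 120.1 and 170.3 CPM in wild-type libraries. All genotypes overlapped for these 3 genes, and the edgeR log2 fold changes over the 3 comparisons ran from -0.10 to 0.15. In 5xFAD/Cd5l tg/wt libraries Gabbr1 had 754, 717 and 697 CPM, a log2 fold change against 5xFAD of -0.06 ± 0.06.

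Delta subunits of GABA-A receptors sit outside synapses, and their gene Gabrd had 47.2, 60 and 67.1 CPM in 5xFAD/Cd5l tg/wt libraries, 55.7, 55.3 and 49.1 CPM in 5xFAD, and 59.2, 62.0 and 66.0 CPM in wild-type libraries. Its 5xFAD libraries were below all wild-type ones (log2 fold change -0.23 ± 0.11, edgeR adjusted p = 0.36). The group II receptor gene Grm3, which astrocytes also make, had 41.5, 53.7 and 55.6 CPM in 5xFAD/Cd5l tg/wt libraries, 53.9, 59.5 and 57.5 CPM in 5xFAD, and 53.0, 51.0 and 51.1 CPM in wild-type libraries. Its 5xFAD libraries were above all wild-type ones (0.14 ± 0.10, edgeR adjusted p = 0.551). The delta receptor gene Grid1 had 67.6, 73.2 and 60.4 CPM in 5xFAD/Cd5l tg/wt libraries, 74.9, 77.7 and 75.6 CPM in 5xFAD, and 75.1, 72.7 and 57.7 CPM in wild-type libraries. The 5xFAD/Cd5l tg/wt libraries were below those of 5xFAD (-0.18 ± 0.10, edgeR adjusted p = 0.314). The rho subunit gene Gabrr2 stayed between 0.508 and 1.57 CPM in all 9 libraries.

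Further tested members were Gabra4, Gabra5, Gabrb1, Gabrb2, Gabrg3, Grik2, Grik3, Grik4, Grin2a, Grin2d and Grin3a. None of these 11 had an edgeR adjusted p under 0.253 in any comparison, which was the value of the kainate subunit gene Grik2 in 5xFAD/Cd5l tg/wt against 5xFAD (0.22 ± 0.11). Grin3a, a glycine-binding NMDA subunit related to Grin3b, had 65.6, 46.5 and 42.1 CPM in 5xFAD/Cd5l tg/wt libraries, 54.6, 57.1 and 63.9 CPM in 5xFAD, and 45.9, 48.5 and 52.0 CPM in wild-type libraries, so its direction in 5xFAD against wild-type (0.26 ± 0.14, edgeR adjusted p = 0.383) was opposite to that of Grin3b. Grin2a, the GluN2 subunit that replaces Grin2b at maturing synapses, had 134, 176 and 181 CPM in 5xFAD/Cd5l tg/wt libraries, 161, 154 and 125 CPM in 5xFAD, and 145, 183 and 130 CPM in wild-type libraries, with all genotypes overlapping.

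Summed over each receptor class, the genotypes lay close together. The 18 ionotropic glutamate receptor genes summed to 3048, 3544 and 3168 CPM in 5xFAD/Cd5l tg/wt libraries, 2987, 2984 and 3033 CPM in 5xFAD, and 2977, 3181 and 2981 CPM in wild-type libraries. The 19 GABA-A genes summed to 1880, 1874 and 1797 CPM in 5xFAD/Cd5l tg/wt libraries, 1914, 1854 and 1868 CPM in 5xFAD, and 1738, 1845 and 2026 CPM in wild-type libraries. The ionotropic glutamate sum was above all 5xFAD libraries in each 5xFAD/Cd5l tg/wt library, most in library 2, whereas the GABA-A sums overlapped throughout.

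The 8 metabotropic glutamate receptor genes summed to 472, 557 and 474 CPM in 5xFAD/Cd5l tg/wt libraries, 521, 540 and 527 CPM in 5xFAD, and 477, 476 and 569 CPM in wild-type libraries. The 5 glycine receptor genes summed to 327, 293 and 297 CPM in 5xFAD/Cd5l tg/wt libraries, 341, 343 and 336 CPM in 5xFAD, and 325, 327 and 368 CPM in wild-type libraries. The pair of GABA-B genes summed to 1068, 1084 and 1022 CPM in 5xFAD/Cd5l tg/wt libraries, 1109, 1113 and 1071 CPM in 5xFAD, and 1055, 1049 and 1041 CPM in wild-type libraries. The glycine sum was below every 5xFAD library in all 5xFAD/Cd5l tg/wt libraries. The GABA-B sum was above every wild-type library in all 5xFAD libraries. These sums carry no test.

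Most GABA-A genes lie in clusters, and some neighbours in a cluster differed in their spread between libraries while others did not. On chromosome 11 Gabra6 and Gabrb2 lie in the same cluster, and Gabrb2 varied by 10.8% over the 9 libraries, while Gabra6 varied by 270%. On the X chromosome Gabre, Gabra3 and Gabrq lie together, and Gabra3 varied by 6.17%, Gabrq by 50.6% and Gabre by 66.2%, the last pair with the same highest library and the same 2 lowest. On chromosome 5 Gabra4 varied by 5.99% and Gabrb1 by 7.61%, and Gabra2 and Gabrg1 by 19.5% each. On chromosome 2 Grin1 overlaps the antisense gene Grin1os by 7706 bases, and on chromosome 7 Grin2d overlaps Kdelr1 by 5607 bases. Reads in these overlaps cannot be told apart without the strand.

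Proteins that make, move or anchor the transmitters and their receptors were described from a list of 96 genes, all of which were tested. In 5xFAD against wild-type brain 1 of the 96 rose and 0 fell (edgeR; 1.04%, against 1.06% of all tested genes that rose and 3.5% in either direction), with a median log2 fold change of 0.05, against -0.01 over all tested genes. It was Lrrtm1, a postsynaptic adhesion protein that binds neurexins, with 66.1, 67.5 and 68.9 CPM in 5xFAD against 53.4, 54.5 and 50.1 CPM in wild-type libraries, a log2 fold change of 0.36 ± 0.08 (edgeR adjusted p = 0.0265). The groups did not overlap, and the 5xFAD/Cd5l tg/wt libraries, at 58.1, 67.9 and 59.2 CPM, lay between or among them. The call was lost without any single 5xFAD or wild-type library, with adjusted p between 0.0552 and 0.108.

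In 5xFAD/Cd5l tg/wt against 5xFAD brain 1 of the 96 rose and 4 fell (5.21% in either direction, against 6.23% of all tested genes), with a median log2 fold change of -0.07. Cbln2, a secreted synapse organiser that binds delta receptors, had 25.7, 20.6 and 28.2 CPM in 5xFAD/Cd5l tg/wt against 42.6, 47.4 and 34.6 CPM in 5xFAD libraries, with 28.8, 33.4 and 29.5 CPM in wild-type libraries (log2 fold change -0.74 ± 0.13, edgeR adjusted p = 0.00752). Nptx2, a pentraxin that clusters AMPA receptors on interneurons, had 28.8, 42.2 and 44.9 CPM in 5xFAD/Cd5l tg/wt against 63.3, 72.1 and 54.0 CPM in 5xFAD libraries, with 52.1, 56.9 and 54.3 CPM in wild-type libraries (-0.71 ± 0.15, edgeR adjusted p = 0.0145). For both genes every 5xFAD/Cd5l tg/wt library lay below every library of the other 2 genotypes.

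Glul, the astrocyte enzyme that turns glutamate into glutamine, had 1720, 1300 and 1512 CPM in 5xFAD/Cd5l tg/wt against 2016, 2051 and 1788 CPM in 5xFAD and 1655, 1697 and 1552 CPM in wild-type libraries (-0.37 ± 0.09, edgeR adjusted p = 0.0342). Cacng4, a TARP that escorts AMPA receptors, had 38.6, 46.3 and 44.5 CPM in 5xFAD/Cd5l tg/wt against 57.5, 53.6 and 53.8 CPM in 5xFAD libraries (-0.35 ± 0.10, edgeR adjusted p = 0.0487). Porcn, an acyltransferase of the endoplasmic reticulum that also associates with AMPA receptors, was the gene that rose, with 41.2, 52.7 and 48.8 CPM in 5xFAD/Cd5l tg/wt against 37.6, 35.3 and 35.8 CPM in 5xFAD libraries (0.39 ± 0.10, edgeR adjusted p = 0.0412). For Glul the 5xFAD libraries were the highest of the 3 genotypes.

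These 5 calls differed in how they stood up to leaving out a library. Cbln2 lost its call without 5xFAD library 2 (edgeR adjusted p = 0.0557), and Nptx2 without 5xFAD library 1 (0.0632) or 2 (0.0916). Glul lost it without either of 5xFAD libraries 1 and 2 or either of 5xFAD/Cd5l tg/wt libraries 2 and 3 (0.101 to 0.164). Cacng4 lost it without any single 5xFAD or 5xFAD/Cd5l tg/wt library (0.074 to 0.189). Porcn lost it without any 5xFAD library, 5xFAD/Cd5l tg/wt libraries 2 or 3, or wild-type libraries 1 or 2 (0.0542 to 0.171). With the number of the mouse as a block, Porcn (0.0665) and Cacng4 (0.0596) also fell short. Leaving out the 3 libraries apart in regional markers kept only library 1 of 5xFAD/Cd5l tg/wt. The log2 fold change was then -0.20 for Glul and 0.17 for Porcn.

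In 5xFAD/Cd5l tg/wt against wild-type brain 0 of the 96 rose and 1 fell (edgeR; 1.04%, against 0.199% of all tested genes that fell and 1.58% in either direction), with a median log2 fold change of 0.01. It was Slc6a5, the glycine transporter of glycinergic nerve endings, with 2.66, 0.337 and 2.26 CPM in 5xFAD/Cd5l tg/wt libraries and 7.02, 12.3 and 2.48 CPM in 5xFAD libraries, against 28.9, 11.7 and 57.7 CPM in wild-type libraries. The log2 fold change was -4.20 ± 0.69 (edgeR adjusted p = 0.00638). It was -2.93 without the 3 libraries apart in regional markers, a fit that kept only library 1 of 5xFAD/Cd5l tg/wt. Slc6a5 is itself one of the 7 hindbrain and spinal cord markers, whose sum was 15.8, 1.28 and 3.33 CPM in 5xFAD/Cd5l tg/wt libraries, 14.5, 20.3 and 17.7 CPM in 5xFAD, and 39.2, 15.6 and 88.6 CPM in wild-type libraries. Tph2 gave 13.2 of the 15.8 CPM of 5xFAD/Cd5l tg/wt library 1, where 5 of the 7 markers were at 0. The part of regional content in the Slc6a5 call was not tested.

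A list of 5 RNAs that stay in the nucleus, among them Malat1 and Meg3, also moved with genotype. At an edgeR adjusted p under 0.05, all 5 fell in 5xFAD against wild-type, and all 5 were higher in 5xFAD/Cd5l tg/wt brain than in 5xFAD brain. Summed, they had 2974, 4245 and 4166 CPM in 5xFAD/Cd5l tg/wt libraries, 1194, 1128 and 1408 CPM in 5xFAD, and 2953, 3502 and 2730 CPM in wild-type libraries. The 5xFAD libraries were below all others. Against 5xFAD/Cd5l tg/wt libraries they were also below for 5 members (Gria2, Grin1, Grm2, Grik5 and Grin2c), or 10.6%, against 16.6% of all tested genes. They were above for 6 (Glra1, Glra2, Glrb, Grid1, Grm4 and Grm8), or 12.8%, against 12.1% of all tested genes. The first share was thus below that of all genes, and the second near it. For Gria2, Grm2 and Grik5 the 5xFAD libraries overlapped those of wild-type. The part of the nuclear RNA difference in the receptor values was not tested.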

How the data were processed

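The values analysed are counts deposited by the authors: a single table of raw reads per gene in 9 libraries, which also gives Ensembl IDs, gene symbols, positions, biotypes and lengths. The build is GRCm39, per the submitters' processing notes. For aligner, counting tool, multi-mapped reads and strandedness, the sources used here give nothing. Groups follow the labelled genotype. Each library is titled as a mouse of its own, and p-values measure the spread between these libraries.

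The filterByExpr function (minimum count 10, minimum total count 15) removed no more than 0.161% of any library. TMM factors ran from 0.987 to 1.018. A single quasi-likelihood fit over the 9 libraries had 1 coefficient per genotype (edgeR 4.0.16, run with limma 3.58.1 in R 4.3.3). The threshold was an adjusted p (Benjamini-Hochberg, 17575 genes) under 0.05. Values after ± are SE for log2 fold changes and SD otherwise. Intervals are 95% from the SE. CPM use the scaled library sizes, and RPKM divide them by the file's gene length. The steps were tested on simulated data. Plots were made with matplotlib 3.10.9.

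Members, companion genes and marker lists were chosen with earlier results of these data known. Named with every library's value were the members that passed, the most abundant member per length of each subfamily, the member with the smallest p in each comparison, Gabra6, and up to 6 companion genes per comparison among those that passed. All other members named were chosen after their values were seen. The values of 5 tested members are not reported here and are left out of the plots, though counts and sums over all members include them. Pairing by mouse number was checked through deviations from genotype means: these correlated at -0.100 to 0.154 for equal numbers and -0.160 to 0.146 for unequal ones, so comparisons were not paired. No 2 libraries of a genotype agreed within sampling noise. The alternatives were scaling by RLE, by upper quartile or by total count alone; either no filter or at least 1 CPM in 3 libraries; DESeq2 1.42.0 or limma-voom in place of edgeR; mouse number as a block; gene length offsets; fitting just the 6 libraries compared; dropping the 3 libraries apart in regional markers; thresholds of 0.01 and 0.10; and leaving out each library.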

Additional observations from a re-analysis of the deposited data

How the results depend on the processing

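No member had opposite signs in the reported and an alternative fit where either passed the threshold. Below it signs did change, for Glra1 in 5xFAD/Cd5l tg/wt against wild-type to 0.52 without the 3 libraries apart in regional markers. Receptor subunits past the threshold numbered 1 in 5xFAD against wild-type brain, 0 in 5xFAD/Cd5l tg/wt against 5xFAD, and 0 in 5xFAD/Cd5l tg/wt against wild-type; shares of all genes called follow in brackets. In the first comparison RLE scaling (3.37%), upper-quartile scaling (3.14%), limma-voom (3.05%), gene length offsets (3.18%) and a threshold of 0.01 (1.12%) gave 0 each, a threshold of 0.10 (5.45%) and DESeq2 (4.81%) gave 2 each, no filter (4.32%) 9, and the fit without the 3 libraries (6.20%) 4. In the second, total-count scaling (6.20%) gave 1, DESeq2 (8.18%), the 6 libraries alone (5.97%) and the fit without the 3 libraries (3.39%) 2 each, a threshold of 0.10 (11.04%) gave 4, and no filter (6.58%) 11. In the third, DESeq2 (2.66%) and the fit without the 3 libraries (1.94%) gave 1 each, a threshold of 0.10 (2.37%) gave 2, and no filter (3.39%) 9. Leaving out each library in turn gave 0 to 1, 0 to 12 and 0 to 6 in the 3 comparisons, the highest counts in the last pair both without 5xFAD/Cd5l tg/wt library 1 (11.5% and 3.82% of all genes). A count of 1 was not always Grin3b: without 5xFAD/Cd5l tg/wt library 2 it was Grm5, and without wild-type library 2 it was Gabra6.

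Companion genes past the threshold numbered 1, 5 and 1, with shares of all genes called again in brackets (3.5%, 6.23% and 1.58%). No filter gave 10, 21 and 19 (4.32%, 6.58% and 3.39%), and DESeq2 gave 3, 7 and 4 (4.81%, 8.18% and 2.66%). In the third comparison limma-voom gave 0 (1.52%). A threshold of 0.01 gave 0 in the first (1.12%) and 1 in the second (1.93%), and a threshold of 0.10 gave 3 in the first (5.45%). Leaving out each library gave 0 to 3 (1.14 to 4.74%), 0 to 15 (1.55 to 11.5%) and 1 to 10 (0.883 to 3.82%). The replicate block gave 0 receptor subunits in each comparison and 1, 3 and 1 companion genes (2.88%, 4.76% and 1.37%). The unfiltered fit tested 31362 genes and gave adjusted p as low as 1.28e-168 for Gabra6, whose wild-type libraries span 1.40 to 94.2 CPM, so its calls are listed for completeness and support nothing; the cause of its higher counts was not tested. In the fit without the 3 libraries the lone 5xFAD/Cd5l tg/wt library is assumed to vary like the others.

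With 3 libraries per genotype, the median SE of a member's log2 fold change was 0.11, which limits the size of change that passes.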
